A study of Homo sapiens with 6 samples.

Results

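Chromosome 19 carries the largest gathering of C2H2 zinc finger genes of the human genome, most of them in tandem arrays. The genes described here are the protein-coding genes of that chromosome whose symbol is ZNF followed by a number and which had an FPKM (fragments of a gene corrected for its length and for library size) of 1 or more in at least 3 of the 6 libraries. Of 241 such genes in the deposited table, 101 passed that rule and 140 did not. The members were chosen by their level in the same 6 libraries, so their levels are a description. The libraries were made from poly(A)-enriched RNA of MNNG/HOS Cl #5, an established human osteosarcoma line transformed with a chemical carcinogen and labelled as WT. In 3 libraries the cells had grown inside a demineralised bone matrix scaffold (3D), and in 3 libraries they had grown in flat culture (2D). All 6 were taken at day 7, in high glucose DMEM with 4 mM glutamine, 10% fetal bovine serum and antibiotics, and the series title concerns drug resistance in the scaffold and glutamine metabolism. The labels do not say whether replicates were separate cultures, so the p-values measure the spread between these libraries, which may be technical.

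Most C2H2 zinc finger proteins of this chromosome carry an N-terminal KRAB box followed by an array of fingers that reads DNA. The KRAB box recruits TRIM28 (KAP1), a scaffold that brings in the histone H3 lysine 9 methyltransferase SETDB1, HP1 proteins and the NuRD complex, and many of these factors silence retroelements. The arrays arose by repeated duplication, so neighbours are paralogs that often resemble each other in promoter and fingers. KRAB zinc finger mRNAs are usually scarce. The mean FPKM over the 6 libraries ran between 0.884 and 18.4 among members, with a median of 1.75 against 3.91 over all tested genes, and exceeded 5 in 9 members. Worked back to whole reads, a member had between 16 and 2793 reads in a library, and the lowest library of a member held a median of 139 reads.

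The libraries held 13334218 to 16363570 reads in 3D and 13652957 to 14241462 reads in 2D. Log2 profiles correlated at 0.968 to 0.981 within groups and at 0.886 to 0.920 between groups. The 10 most abundant genes took 5.51 to 5.76% of the reads in 3D and 8.08 to 9.67% in 2D, mitochondrial genes 4.27 to 4.55% in 3D and 5.84 to 7.19% in 2D, and processed pseudogenes 3.56 to 3.96% in 3D and 4.90 to 5.97% in 2D. Sense intronic RNA stood the other way, at 446 to 513 RPM (reads scaled to the library total) in 3D and 327 to 395 in 2D. These measures moved with the groups, and their part in the results was not tested. Of 8 osteoblast and osteosarcoma markers, 5 reached 1 FPKM in some library, with sums of 385 to 407 FPKM in 3D and 585 to 803 in 2D. VIM made up most of that sum, with 291 to 297 FPKM in 3D and 514 to 744 in 2D, while COL1A1 stood the other way, averaging 43.7 ± 6.75 FPKM in 3D and 8.28 ± 1.61 in 2D (SD, n = 3 each). SPARC averaged 51.7 FPKM in 3D and 56.1 in 2D, with groups that overlapped. RUNX2 and COL1A2 averaged 2.19 and 1.24 FPKM in 3D, against 0.648 and 0.217 in 2D, also with groups that overlapped. SP7, ALPL and BGLAP, the other markers of the list, stayed under 1 FPKM. Of 5 blood and marrow markers 4 reached 1 FPKM, among them the globin genes HBB and HBA1, and the list summed to 4.20 to 8.55 FPKM in 3D and 3.16 to 24.4 in 2D. PTPRC, which marks white blood cells, was at most 0.0337 FPKM. The endothelial list summed to 0.156 to 0.293 FPKM in 3D and 0.108 to 0.202 in 2D with CDH5 listed at 0, the fat list to 0.926 to 1.44 in 3D and 0.467 to 0.719 in 2D with ADIPOQ listed at 0, and the epithelial list, led by KRT8, to 36.2 to 44.7 in 3D and 18.0 to 27.7 in 2D.

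Summed over the group, the zinc finger members took a somewhat larger share of the reads in the scaffold. They summed to 2192, 2275 and 2381 RPM in 3D, against 1850, 1741 and 2047 in 2D, a ratio of means of 1.21. The 3D libraries all lay above the 2D libraries. These sums hold members that passed the FPKM rule through 1 group alone, so they are a description. The rise was not particular to the members. Chromosome 19 ZNF genes below the rule summed to 555, 585 and 610 RPM in 3D, against 484, 459 and 534 in 2D, a ratio of 1.18. For ZNF genes of other chromosomes the ratio was 1.17. In bulk RNA, fewer cells of a type and less RNA per cell cannot be told apart.

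Per gene, levels were compared with limma on log2(FPKM + 1), with p-values adjusted over all 12843 tested genes, and log2 changes below are 3D minus 2D on that scale. Of the 101 members, 41 were higher in 3D (40.6%), 8 were lower (7.92%) and 52 did not pass an adjusted p of 0.05. The background over all tested genes was 33.3% higher and 18.1% lower. These counts hold 11 members whose direction the FPKM rule fixed. ZNF66, ZNF253, ZNF264, ZNF473, ZNF552, ZNF561, ZNF576 and ZNF738 passed the rule through the 3D libraries alone, and ZNF550, ZNF555 and ZNF784 through the 2D libraries alone, so their values are a description. Of the other 90 members, 33 were higher (36.7%) and 5 lower (5.56%), and with median-ratio scaling 17 were higher (18.9%, background 24.5%) and 8 lower (8.89%, background 24.5%). The background was not cut in that way, so the shares of these 90 are not matched to it. The median log2 change was 0.21 among members and 0.14 over all tested genes. In 49 members every 3D library lay above every 2D library, against a background of 39.0%, and in 10 members every 3D library lay below, against 21.9%. Those counts also hold the 11 members whose direction the rule fixed, and among the other 90 they were 41 and 7. With median-ratio scaling, which moves the median of all genes by more than 0.1, 23 members were higher (22.8%, background 24.5%) and 11 lower (10.9%, background 24.5%), and the median was 0.07 against 0.01 over all genes. On that scale the share higher was close to the background, while the share lower was under it. Leaving out 2D replicate 2 or either of 3D replicates 2 and 3 gave 26 members higher each time, and the members lower numbered 3 without 2D replicate 1, 5 without 2D replicate 3 and 4 without either of 3D replicates 2 and 3.

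Zinc finger genes elsewhere gave counts of a like size. Of 152 tested ZNF genes of other chromosomes, 62 were higher (40.8%) and 14 lower (9.21%), with a median of 0.23, and their summed level was 6151 to 6452 RPM for the 3D libraries, against 5200 to 5735 for the 2D libraries. The other 565 tested protein-coding genes of chromosome 19 split differently, with 145 higher (25.7%), 159 lower (28.1%) and a median of -0.03. No test was made between these sets. With median-ratio scaling, 44 of the ZNF genes of other chromosomes were higher and 21 lower, and 104 of the other chromosome 19 genes were higher and 202 lower.

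**Figure D1:**
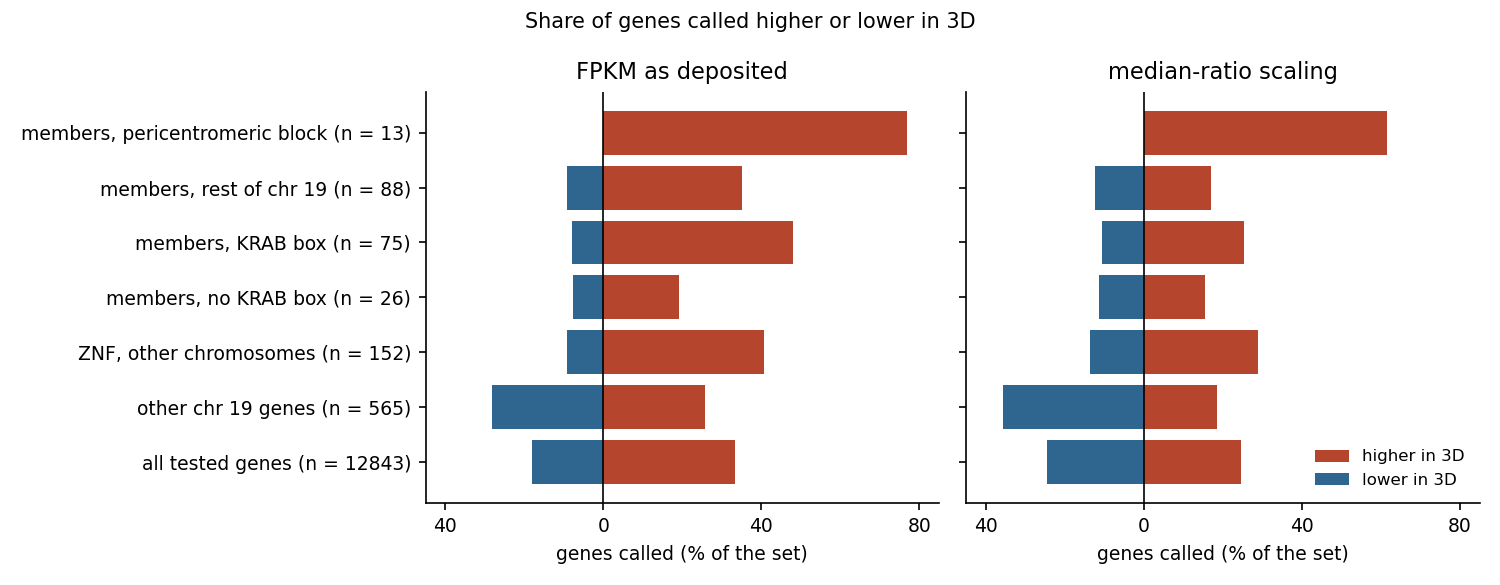
Share of genes called higher (right of 0, red) or lower (left of 0, blue) in 3D, in percent of each set, with FPKM as deposited in the left panel and with median-ratio scaling in the right panel. Bars of the 13 members of the pericentromeric block reach 76.9 and 61.5% on the higher side with none on the lower side, while all tested genes stand at 33.3% and 24.5% higher.

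The members were not spread evenly over that picture. Chromosome 19 ZNF genes were cut into blocks wherever neighbouring starts lay more than 1 Mb apart. One block stood out after its values had been seen, and so carries no test as a block. It runs over chr19:19668796-24129961 (GRCh38), at the base of the short arm beside the centromere, holds 37 of the 241 genes and is the array around ZNF91. Of its 13 members, 10 were higher in 3D (76.9%, background 33.3%), none was lower (background 18.1%) and 3 did not pass, with a median log2 change of 0.63. With median-ratio scaling 8 were higher (61.5%, background 24.5%) and none lower, and the median was 0.53. Without ZNF66, ZNF253 and ZNF738, which passed through 3D alone, 7 of 10 were higher (70.0%) and none lower, with a median of 0.61. With median-ratio scaling 6 of these 10 were higher (60.0%). The background was not cut in that way. The other 88 members had 31 higher (35.2%) and 8 lower (9.09%), with a median of 0.15, and 15 higher and 11 lower with median-ratio scaling. Having none lower was not particular to the pericentromeric block, whose median was the largest of all blocks. The block at chr19:7069444-9793180 had 5 of 9 members higher (55.6%) and none lower, with a median of 0.31. With median-ratio scaling 1 of these 9 was higher and none lower, with a median of 0.19. A block of 2 members and a block of 1 member had medians of 0.54 and 0.51, also with none lower. The 13 members of the pericentromeric block summed to 283, 312 and 328 RPM in 3D, against 129, 125 and 171 in 2D, a ratio of 2.17. For the other 88 members the sums were 1909, 1962 and 2053 in 3D, against 1721, 1616 and 1876 in 2D, a ratio of 1.14. Both sums hold members that passed the FPKM rule through 1 group alone, and the block was picked after its values were seen. The 2 ratios are therefore a description, and no test was made between them.

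**Figure D2:**
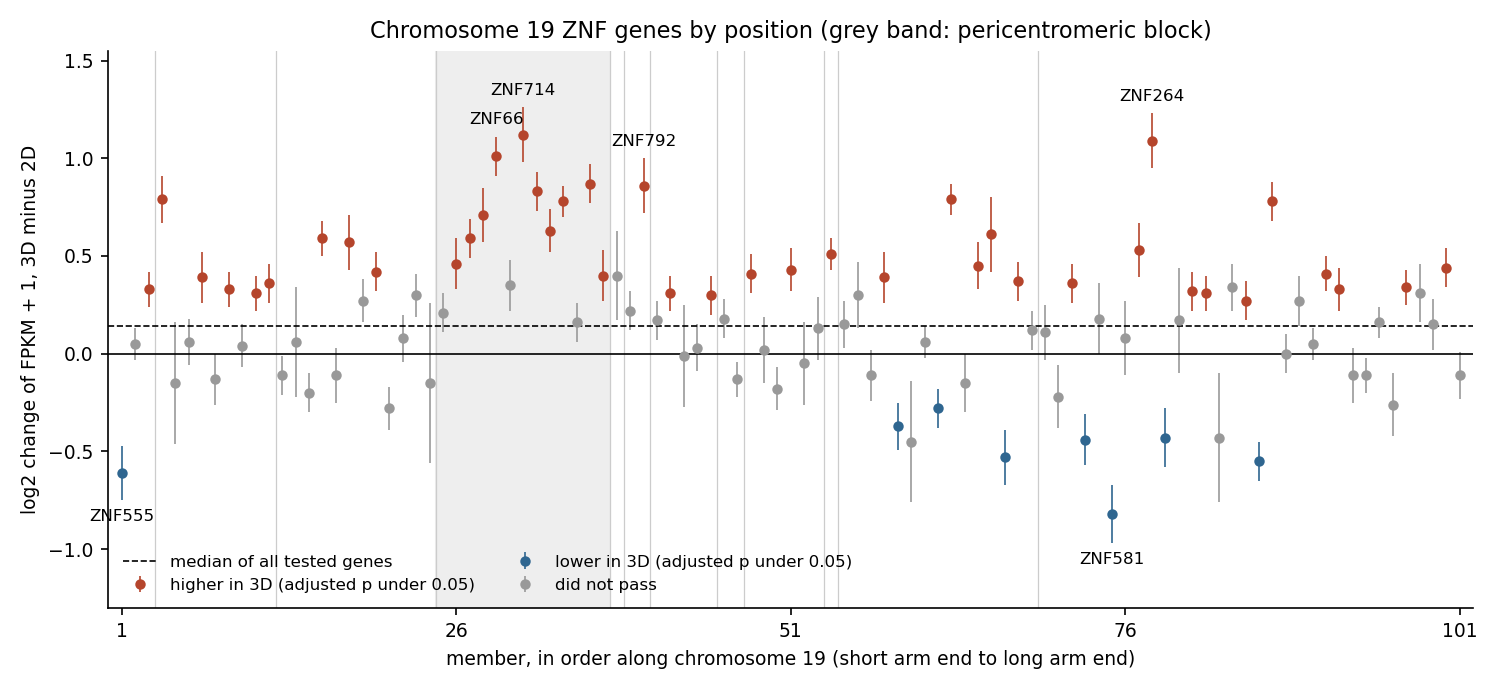
Log2 change of FPKM + 1 (3D minus 2D, points, with standard errors as bars) of the 101 members in their order along chromosome 19, with thin vertical lines between position blocks and the dashed line at the median of all tested genes. In the grey pericentromeric block all 13 points lie above 0, while the 8 members called lower (blue) lie at the far end of the short arm or in the long arm.

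ZNF714 showed the largest change of all members on the log2(FPKM + 1) scale with all 6 libraries. With a pseudocount of 0.1 its log2 change was 1.46 and that of ZNF264, outside the block, 1.86; with voom on the worked-out reads they were 1.51 and 2.04, and without 2D replicate 1 they were 1.05 and 1.20. ZNF714 lies at chr19:21082159-21125270 (ENSG00000160352) and had 4.26, 5.16 and 5.75 FPKM in 3D, against 1.52, 1.62 and 2.21 in 2D, with a log2 change of 1.12 (SE 0.14, adjusted p = 0.000902). The lowest 3D library lay far above the highest 2D library, and the call held in all 14 alternative settings. ZNF66, whose mean of 1.52 FPKM in 3D was too low for the rule for named genes and which is named after its values were seen, had the steepest ratio. It had 1.27, 1.66 and 1.64 FPKM in 3D, against 0.187, 0.277 and 0.277 in 2D, a ratio of means of 6.17 that rests on as few as 16 reads in a 2D library, and it had passed the FPKM rule through 3D alone. ZNF100 had 3.08, 3.21 and 3.02 FPKM in 3D, against 1.12, 1.14 and 1.51 in 2D (log2 change 0.87, adjusted p = 0.000735). ZNF431, the right-hand neighbour of ZNF714, had 2.24, 2.64 and 2.65 FPKM in 3D, against 1.01, 0.805 and 1.10 in 2D (log2 change 0.83, adjusted p = 0.000855). ZNF626 had 2.67, 2.66 and 2.46 FPKM in 3D, against 0.881, 1.08 and 1.70 in 2D (log2 change 0.71, adjusted p = 0.00541). In each of these genes the 2 groups stood well apart.

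ZNF91, known for silencing SVA retrotransposons in primates, changed less. It had 1.57, 1.85 and 1.95 FPKM in 3D, against 0.965, 0.895 and 1.52 in 2D, a log2 change of 0.40 (SE 0.13, adjusted p = 0.0387). Median-ratio scaling ended its call (adjusted p = 0.0927), as did leaving out 2D replicate 1 or 2 (0.112 and 0.117) or 3D replicate 2 or 3 (0.0996 and 0.108). ZNF93, a silencer of LINE-1 elements in the same block, missed the FPKM rule with 1.07, 0.948 and 1.28 FPKM in 3D, against 0.572, 0.422 and 0.422 in 2D. ZNF486 and ZNF708 were also higher, by log2 changes of 0.59 and 0.63. ZNF253 and ZNF738, which passed the FPKM rule through 3D alone, stood at 0.46 and 0.78 on that scale. ZNF253 lost its call with median-ratio scaling, upper-quartile scaling and no filter on low values (adjusted p = 0.0591, 0.0534 and 0.0621), and when 2D replicate 1 or either of 3D replicates 2 and 3 was left out (0.0613, 0.0552 and 0.0751). Of the 3 that did not pass, ZNF14 had 2.52 to 3.28 FPKM in 3D and 2.41 to 2.48 in 2D, ZNF430 had 1.88 to 2.18 in 3D and 0.950 to 1.60 in 2D, and ZNF429 had 1.14 to 1.27 in 3D and 0.855 to 1.19 in 2D. ZNF14 and ZNF430 still had groups that did not overlap.

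**Figure D3:**
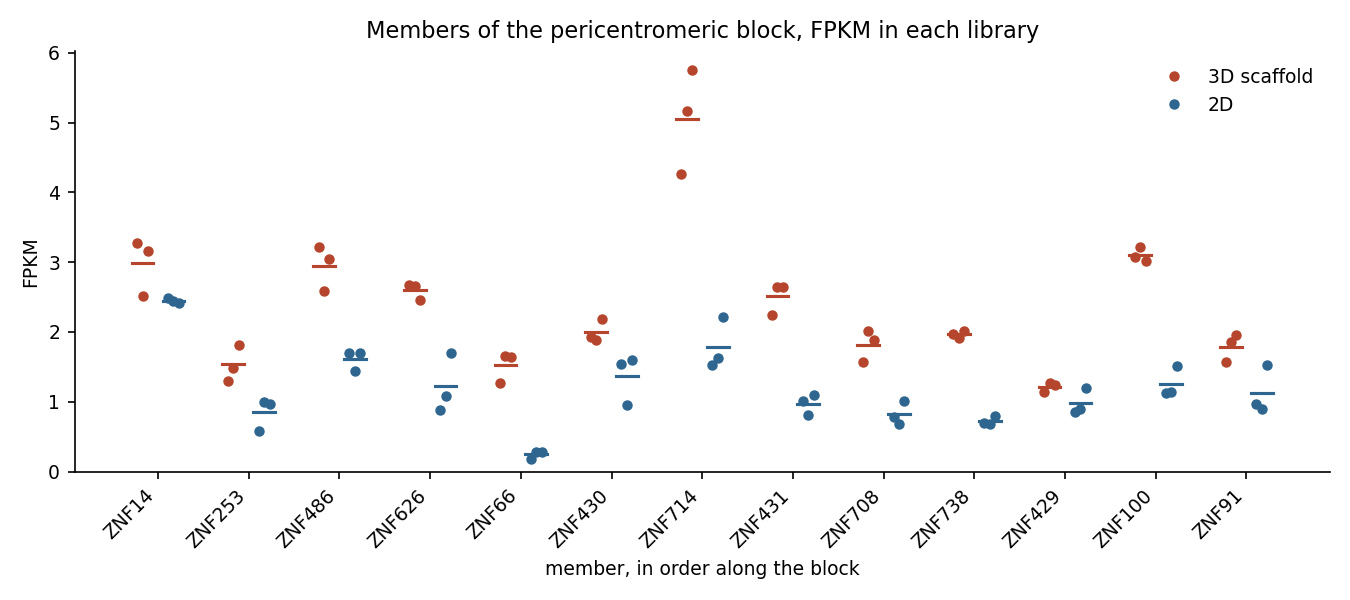
FPKM of the 13 members of the pericentromeric block in each library (points, 3D in red left of 2D in blue, with the group means as horizontal lines), in order along the block. ZNF714 reaches 5.75 FPKM in 3D, and in 12 of the 13 genes no 2D point reaches the lowest 3D point, against 39.0% of all tested genes. For ZNF66, ZNF253 and ZNF738 the FPKM rule fixed this, and without them it was 9 of 10.

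Many genes of the block had no value. Of its 24 genes below the FPKM rule, 13 were listed at 0 in all 6 libraries, ZNF208, ZNF729 and ZNF90 among them. A listed 0 does not show that a gene is silent, since EHMT2, a gene most cells use, is also listed with 0 to 7 reads. Of the 11 with any value, 9 had a higher mean in 3D and 2 a lower one. In a fit with no filter on low values ZNF93, ZNF675 and ZNF681 were higher (adjusted p = 0.0145, 0.0362 and 0.0293) and none was lower. ZNF675, which in other cells restrains TRAF6 signalling downstream of RANK, had 1.19, 0.993 and 1.16 FPKM in 3D, against 0.639, 0.682 and 0.774 in 2D.

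The promoters of the block that had a window hold a run of letters in common, and the lines below show the stretch around it for members that moved, members that did not, and genes below the FPKM rule. Each stretch covers 77 bases, beginning 95 bases and ending 19 bases before the RefSeq start (GRCh38.p14), read 5′ to 3′ on the strand of the gene. Capitals mark CCAATCAG, an 8-letter run with the CCAAT box, a common promoter element bound by NF-Y. It was found as the core of the most frequent 10-letter word in the promoters of the block members.
ZNF714: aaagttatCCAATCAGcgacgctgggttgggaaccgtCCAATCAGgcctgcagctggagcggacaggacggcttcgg
ZNF66: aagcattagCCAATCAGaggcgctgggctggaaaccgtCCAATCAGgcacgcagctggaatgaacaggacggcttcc
ZNF431: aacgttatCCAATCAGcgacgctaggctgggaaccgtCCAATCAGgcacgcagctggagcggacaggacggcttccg
ZNF100: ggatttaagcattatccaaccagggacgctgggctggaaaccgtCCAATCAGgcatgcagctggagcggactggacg
ZNF626: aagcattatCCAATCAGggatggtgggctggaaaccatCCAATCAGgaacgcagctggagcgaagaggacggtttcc
ZNF91: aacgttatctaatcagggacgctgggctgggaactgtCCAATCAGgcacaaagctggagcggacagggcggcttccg
ZNF14: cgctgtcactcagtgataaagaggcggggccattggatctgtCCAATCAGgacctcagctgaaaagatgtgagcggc
ZNF43: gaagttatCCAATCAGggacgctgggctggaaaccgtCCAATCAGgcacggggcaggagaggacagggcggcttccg
ZNF208: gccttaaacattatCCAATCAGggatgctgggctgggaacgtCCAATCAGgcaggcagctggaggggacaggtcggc

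The stretch of ZNF714 lies at chr19:21082108-21082184 on the plus strand and that of ZNF91 at chr19:23395490-23395566 on the minus strand. Searched on both strands over windows from 250 bases before to 50 bases after the start, CCAATCAG was in all 11 block members with a window and in all 18 block genes below the FPKM rule with one. The run was picked from the promoters of the block members, so their share follows from that choice. CCAATCAG was in 15 of 81 members outside the block (18.5%), in 17 of 128 ZNF genes of other chromosomes (13.3%), in 6.60% of 8135 tested protein-coding genes and in 4.75% of 27326 genes with a window. In the stretches shown, ZNF14, which did not pass, holds the run 1 time, as do ZNF100 and ZNF91. ZNF714 and ZNF208, the latter listed at 0, hold it 2 times. Every block gene with a window holds the run, so its presence cannot separate genes that were higher from genes that were not. Its part in the levels was not tested. The block promoters were also poor in CpG, with a median observed over expected ratio of 0.448, against 0.774 in the other members and 0.840 in tested protein-coding genes.

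Other promoter words were counted in the same windows, with no test of any of them. CCGGAAGT, the ETS-type word, was in none of the 11 block members, in 20 of 81 other members (24.7%) and in 10.9% of tested protein-coding genes. CACGTG, the E-box bound by MYC, was in 5 of 92 members (5.43%) and in 13.0% of tested protein-coding genes. The E2F-type word TTTGGCGC was in 2 of 11 block members (18.2%), in 3 of 18 block genes below the FPKM rule (16.7%), in 2 of 81 other members (2.47%) and in 1.39% of tested protein-coding genes, and TTTCCCGC was in none of the 92 members and in 3.33% of tested protein-coding genes. The TATA word TATAAA was in 2 of 11 block members, in 2 of 81 other members and in 7.71% of tested protein-coding genes. The NRF1-type GCATGCGC, the CRE TGACGTCA and the YY1-type ATGGCGGC were in 4, 6 and 6 of the 92. The shares for tested protein-coding genes were 6.83%, 4.07% and 8.22%. A matching word is a description of the letters and does not show a bound site.

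Outside the block, ZNF264 had the highest log2 change, near the end of the long arm at chr19:57191500-57222846 (ENSG00000083844), but it passed the FPKM rule through 3D alone, so its difference is a description. It had 2.02, 2.43 and 2.74 FPKM in 3D, against 0.873, 0.457 and 0.481 in 2D, a log2 change of 1.09 (SE 0.14) and a ratio of means of 3.97. ZNF792 had 4.85, 6.04 and 6.08 FPKM in 3D, against 2.18, 2.63 and 3.23 in 2D (log2 change 0.86, adjusted p = 0.00223). ZNF480 and ZNF416 had means of 2.46 ± 0.115 and 2.37 ± 0.153 FPKM in 3D, against 0.992 ± 0.0506 and 0.963 ± 0.166 in 2D (SD, n = 3 each). ZNF416 overlaps ZIK1 on the other strand, a zinc finger gene that was itself higher (log2 change 0.50), and the use of strand in the counting is not given in the sources used here. ZNF557 and ZNF440 averaged 3.27 ± 0.313 and 2.63 ± 0.258 FPKM in 3D, against 1.48 ± 0.284 and 1.40 ± 0.0661 in 2D (SD, n = 3 each), with log2 changes of 0.79 and 0.59. The groups of all 6 genes stayed apart, and the calls of the 5 other than ZNF264 held in all 14 alternatives.

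The 8 members lower in 3D were ZNF581, ZNF555, ZNF550, ZNF160, ZNF784, ZNF805, ZNF432 and ZNF766, of which the rule for named genes admits 4, as the others were under 2 FPKM in both groups. ZNF555, ZNF550 and ZNF784 had passed the FPKM rule through 2D alone. By the ratio of means, 2D over 3D, ZNF555 (2.30) and ZNF550 (2.12) stood above ZNF581 (1.95). ZNF581, a short protein with 4 fingers and no KRAB box, fell furthest on the log2(FPKM + 1) scale. It had 5.29, 4.61 and 4.50 FPKM in 3D, against 7.25, 11.1 and 9.67 in 2D, a log2 change of -0.82 (SE 0.15, adjusted p = 0.00405), and its call held in all 14 alternatives. It overlaps ZNF580 and CCDC106 on the same strand, and ZNF580 had 3.14 to 5.34 FPKM in 3D and 3.02 to 4.12 in 2D and did not pass. ZNF805 had 1.26, 1.71 and 1.80 FPKM in 3D, against 3.14, 2.43 and 1.98 in 2D (log2 change -0.43, adjusted p = 0.0444). ZNF432 had 2.52, 2.94 and 3.12 FPKM in 3D, against 4.21, 3.35 and 4.45 in 2D (log2 change -0.37, adjusted p = 0.0372). ZNF766 had 1.92, 1.94 and 1.96 FPKM in 3D, against 2.93, 2.25 and 2.58 in 2D (log2 change -0.28, adjusted p = 0.0470). ZNF432 overlaps transcripts on both strands, among them ZNF841, that also had lower means in 3D. These 3 calls passed with median-ratio scaling (adjusted p = 0.0222, 0.00936 and 0.0109) and were lost without most single libraries. For ZNF805 these were 2D replicates 1 and 2 and 3D replicates 1 to 3 (adjusted p = 0.0590 to 0.121), and for ZNF432 and ZNF766 they were 2D replicates 1 and 3 and 3D replicates 1 to 3 (0.0507 to 0.101 and 0.0909 to 0.134).

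In 8 pairs of members next to each other along the chromosome, one was called higher and the other lower, and 4 pairs are given here, chosen after their values were seen. Only 4 of the 8 hold no member whose direction the FPKM rule fixed, ZNF480 with ZNF766 and ZNF614 with ZNF432 among them. ZNF264 was higher and ZNF805 lower with 17839 bases between the genes, where ZNF264 had passed through 3D alone, and ZNF416 was higher and ZNF550 lower with 11703 bases between them. ZNF550, which had passed through 2D alone, had 0.739, 0.637 and 0.743 FPKM in 3D, against 1.61, 1.26 and 1.64 in 2D. ZNF480 was higher and ZNF766 lower at a distance of 1131 bases, and ZNF614 was higher and ZNF432 lower at 1139 bases. ZNF614 had 3.54, 2.73 and 3.89 FPKM in 3D, against 2.12, 2.15 and 2.73 in 2D, with groups that touched. Its call ended when 1 of 2D replicates 1 and 2 or of 3D replicates 1 and 3 was left out (adjusted p = 0.103 to 0.126) and with median-ratio scaling (0.137).

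**Figure D4:**
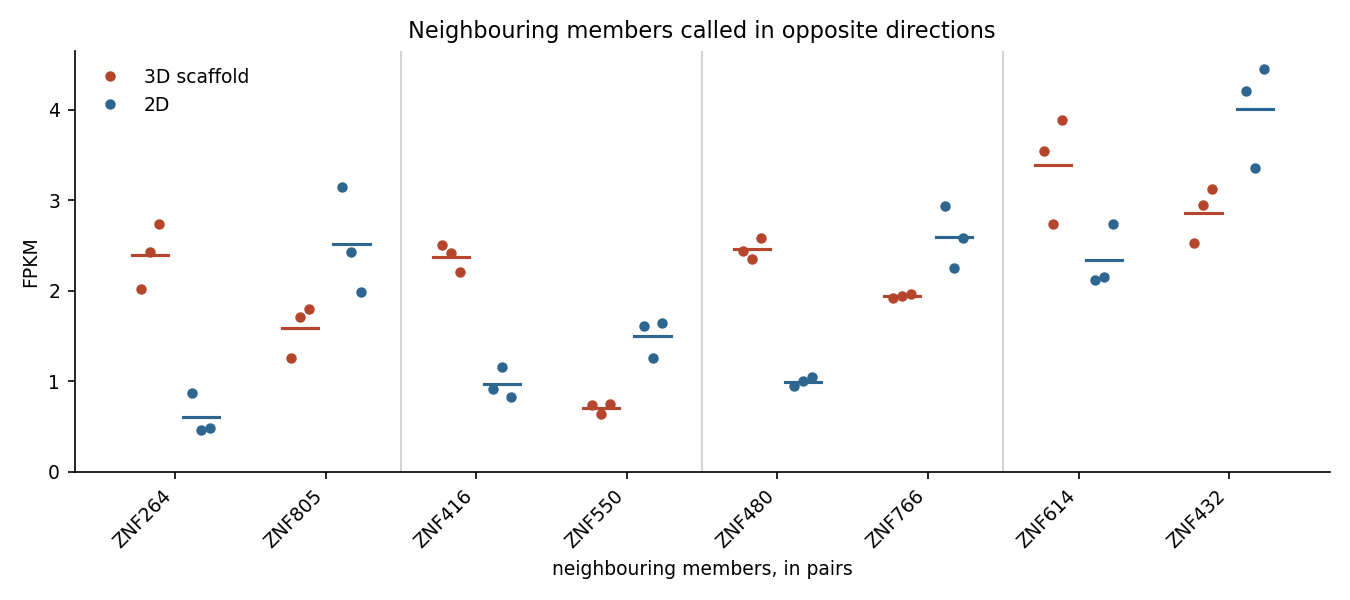
FPKM in each library of 4 pairs of neighbouring members called in opposite directions (points, 3D in red left of 2D in blue, with the group means as horizontal lines). In each pair the left gene is higher in 3D and the right gene lower.

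The most abundant members hardly differed between cultures. ZNF146, which consists of little beyond its fingers, had 19.3, 19.3 and 20.0 FPKM in 3D, against 18.1, 15.3 and 18.7 in 2D (log2 change 0.17, adjusted p = 0.195). ZNF787 had 18.4, 12.9 and 10.7 FPKM in 3D, against 14, 13.4 and 11.5 in 2D, and ZNF121 had 10.1, 10.7 and 11.4 in 3D, against 10.2, 9.24 and 12 in 2D. Neither passed, with log2 changes of 0.08 (SE 0.19) and 0.04 (SE 0.11). The members nearest to no change were ZNF134, ZNF260 and ZNF428, with log2 changes of 0.00, -0.01 and 0.02. For ZNF260 the near-zero value averages over 3D libraries of 0.441, 1.32 and 2.05 FPKM, and leaving out 3D replicate 1 gave 0.28. In 6 members, ZNF627, ZNF791, ZNF260, ZNF841, ZNF888 and ZNF548, the libraries of 1 group differed by 3-fold or more.

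Among members with a known role is ZNF473. Also called ZFP100, it belongs to the machinery that forms the 3′ ends of replication-dependent histone mRNAs through the U7 snRNP. It had 1.64, 1.59 and 1.54 FPKM in 3D, against 0.862, 0.750 and 0.830 in 2D, a log2 change of 0.51 (SE 0.08). It passed the FPKM rule through 3D alone, so that difference is a description. VRK3, which overlaps it on the other strand, averaged 0.980 FPKM in 3D and 1.23 in 2D. PCNA, a replication gene, had 115 to 134 FPKM in 3D and 43.3 to 45.7 in 2D, while the proliferation markers TOP2A and MKI67 had 106 to 114 and 33.6 to 46.1 FPKM in 3D, against 83.4 to 94.7 and 28.7 to 39.5 in 2D. TOP2A was higher (log2 change 0.28, adjusted p = 0.0414) and MKI67 did not pass (0.27, adjusted p = 0.198). The part of these genes in this result was not tested. ZNF274, which binds over the 3′ ends of zinc finger genes and recruits SETDB1 there, had 3.27, 2.90 and 2.91 FPKM in 3D, against 2.36, 2.07 and 2.14 in 2D (log2 change 0.34, adjusted p = 0.0179). Median-ratio scaling ended that call (adjusted p = 0.0880), as did leaving out 2D replicate 2 (0.0616). ZNF444, a SCAN domain factor, averaged 2.27 ± 0.537 FPKM in 3D and 1.24 ± 0.173 in 2D (SD, n = 3 each, adjusted p = 0.0176), and missed the threshold without 2D replicate 3 or 3D replicate 2 (0.0549 and 0.0588). ZNF304, a KRAB factor linked to silencing of the INK4-ARF locus, averaged 1.93 ± 0.0221 FPKM in 3D and 1.36 ± 0.148 in 2D (SD, n = 3 each, adjusted p = 0.0212), and it no longer passed once libraries were scaled by median ratios (adjusted p = 0.0815) or 1 of 2D replicates 1 and 2 or of 3D replicates 2 and 3 was left out (0.0557 to 0.0701). ZNF350, a BRCA1 partner, and ZNF57 did not pass, at log2 changes of -0.11 and 0.05. ZNF224, ZNF331, ZNF382 and ZNF420 were below the FPKM rule.

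Protein features divided the members unevenly. By a letter pattern in the proteins of GENCODE 29, 75 members had a KRAB box in some isoform and 26 did not. Among those with the box 36 were higher in 3D (48.0%) and 6 lower, with a median log2 change of 0.30. Among those without it 5 were higher (19.2%) and 2 lower, with a median of 0.07. With median-ratio scaling 19 and 4 were higher (25.3 and 15.4%, background 24.5%) and the medians were 0.19 and -0.08. The share with a box was then near the background. With FPKM as deposited, the background was 33.3% higher and 18.1% lower. On that scale the counts with a box hold ZNF66, ZNF253, ZNF264, ZNF552, ZNF561 and ZNF738 (higher) and ZNF550 and ZNF555 (lower). Those without a box hold ZNF473 and ZNF576 (higher) and ZNF784 (lower). The FPKM rule fixed the direction of all these genes, and counts by box without them were not made. ZNF genes of other chromosomes divided in the same direction, with 30 of 54 higher (55.6%) with a box and 32 of 98 (32.7%) without one. With median-ratio scaling these were 23 (42.6%) and 21 (21.4%). Leaving out the block, 27 of 63 KRAB members were higher (42.9%) and 6 lower, counts that still hold ZNF264, ZNF552, ZNF561, ZNF550 and ZNF555. With median-ratio scaling 12 of the 63 were higher (19%, background 24.5%) and 8 lower. No test was made between these classes, and members without a box were also more abundant, with a median of 2.98 against 1.66 FPKM. The 5 that were higher and in which the pattern found no box were ZNF714, ZNF576, ZNF473, ZNF865 and ZNF444. The pattern can miss a box whose letters differ more. The number of fingers ran up to 31, in ZNF91, with a median of 11, and had a Spearman correlation of 0.00 with the log2 change across the 101 genes, which share the libraries and are not independent.

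A list of 22 genes was followed, of which 21 could be tested. It holds TRIM28 and its partners, and also DNA methylation genes, other histone methyltransferases, TRIM24 and TRIM33. Of these 21 genes 10 were higher in 3D (47.6%, background 33.3%), none was lower and 11 did not pass. The median log2 change was 0.26. Of the genes called higher, only SETDB1, CBX5 and CHD4 belong to the TRIM28 complex described above, so the count does not describe that complex. With median-ratio scaling 8 were higher (38.1%, background 24.5%) and 2 lower. TRIM28 itself had 44.6, 39.2 and 33.6 FPKM in 3D, against 34.7, 36.9 and 30.3 in 2D, and did not pass (log2 change 0.19, adjusted p = 0.252). SETDB1 had 8.14, 8.74 and 8.07 FPKM in 3D, against 6.21, 6.31 and 6.92 in 2D (log2 change 0.32, adjusted p = 0.0194), a call that ended with median-ratio scaling (0.150) and with 2D replicate 1 or 2 or 3D replicate 2 left out (0.0587, 0.0665 and 0.0820). CBX5, the HP1 alpha protein that reads the mark, averaged 55.1 ± 2.68 FPKM in 3D and 26.0 ± 4.66 in 2D (SD, n = 3 each), while CBX1 and CBX3 did not pass. The maintenance methylation genes UHRF1 and DNMT1 had the largest log2 changes of the list, 1.88 and 1.17. Both are known to rise with DNA replication, as does PCNA, whose levels are given above with those of TOP2A and MKI67, and the part of these genes here was not tested either. The methyltransferases SUV39H1, SUV39H2 and EHMT1 were higher by 0.79, 0.99 and 0.53, the NuRD helicase CHD4 by 0.61, and TRIM24 and TRIM33 by 0.54 and 0.45. SUV39H1 missed the threshold without 2D replicate 2 or 3 (adjusted p = 0.0521 and 0.0512), and TRIM33 with median-ratio scaling (0.0515). EHMT2 was listed with 0 to 7 reads and was not tested; how reads with several matches were counted is not given, so this value may not show its level.

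The list of HUSH complex and other retroelement silencers was mixed. Of 13 tested genes, 5 were higher (38.5%, near the background of 33.3%), 4 lower (30.8%, background 18.1%) and 4 did not pass, with a median of 0.23, and median-ratio scaling gave the same counts. HELLS, a chromatin remodeller of DNA methylation, averaged 13.9 ± 0.837 FPKM in 3D and 3.99 ± 1.17 in 2D (SD, n = 3 each), and TASOR2, PPHLN1, MORC2 and SMARCAD1 were higher by 0.88, 0.58, 0.56 and 0.48. MPHOSPH8, the HUSH reader of methylated lysine 9, was lower at -0.33, as were MORC3, ATRX and ZNF638 at -0.49, -0.43 and -0.32. Leaving out single libraries ended the calls of MPHOSPH8 (2D replicates 1 and 2, 3D replicates 2 and 3), ATRX (2D replicates 1 and 3, 3D replicates 1 and 2) and ZNF638 (2D replicates 1 and 3, 3D replicates 1 to 3), with adjusted p of 0.0542 to 0.119. DAXX was listed with 19 to 44 reads and was not tested, with the same limit as EHMT2. The remaining zinc finger genes of the chromosome with ZFP, ZSCAN, ZIM, ZIK, ZBTB or ZFR symbols, PEG3 included, numbered 20, of which 6 could be tested. ZBTB45, ZFP82, ZIK1 and ZSCAN22 were higher by log2 changes of 0.37, 0.33, 0.50 and 0.58, ZBTB7A did not pass (median log2 change of the 6, 0.35), and ZFP36, an mRNA decay factor and not a C2H2 protein, was lower at -0.85. Median-ratio scaling ended the calls of ZBTB45 and ZFP82 (adjusted p = 0.0876 and 0.0868), as did leaving out 3D replicate 2 for both (0.0659 and 0.0832) and either of 2D replicates 1 and 2 or 3D replicate 3 for ZFP82 (0.0654 to 0.0782).

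The FPKM rule shapes the counts. Of the 101 members, 61 reached 1 FPKM in all 6 libraries, and of these 22 were higher (36.1%, near the background of 33.3%) and 4 lower. With median-ratio scaling 10 of them were higher (16.4%, background 24.5%) and 7 lower. The background was not limited to genes at 1 FPKM in all 6 libraries, so these shares are not matched to it. Just inside the rule stood ZNF529, with a third-highest FPKM of 1.050, and ZNF784, with 1.071, and just outside it ZNF675, with 0.9929, and ZNF283, with 0.9773. ZNF529 did not pass (log2 change 0.03), ZNF784, which passed through 2D alone, had a log2 change of -0.44, and ZNF283 had 1.06, 0.977 and 1.04 FPKM in 3D, against 0.256, 0.388 and 0.590 in 2D. Of the 140 genes below the rule, 30 were listed at 0 in every library, and in the fit with no filter on low values 9 of the 140 were higher and 2 lower. Over all 211 chromosome 19 ZNF genes with any value, that fit had 40 higher (19%, background 13.4%) and 5 lower (2.37%, background 6.84%).

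Reads of duplicated genes can be hard to place, and how reads with several matches were counted is not given in the sources used here. Of the 101 members, 52 shared no run of 100 bases in their GENCODE 29 transcripts with a transcript of another gene, and 80 shared less than 5% of such runs. The highest share in the pericentromeric block was 3.91%, in ZNF626. The 5 members above 25% were ZNF324, ZNF417, ZNF468, ZNF564 and ZNF625, whose single values are uncertain, and ZNF324, ZNF468 and ZNF625 are among those called higher. In 73 members the gene also overlapped another annotated gene.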

How the data were processed

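The authors deposited 1 table of FPKM values for 62703 Ensembl gene IDs and 6 libraries. Per the submitters' processing notes, FastQC, fastp, HISAT2, StringTie and edgeR were used with GRCh38, without versions or roles. FPKM values were worked back to whole reads (within 0.01 of a read), which gave the depths. Symbols and positions came from GENCODE 29 and the gene name table, and promoters from RefSeq.

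Genes with FPKM of 1 or more in at least 3 libraries were fitted with limma 3.58.1 (R 4.3.3; trend and robust moderation) on log2(FPKM + 1), 3D against 2D without a block, with Benjamini-Hochberg adjustment over 12843 genes and a threshold of 0.05. This scale understates changes of low genes. The script was tested on simulated reads. FPKM depends on the library total, so other scalings were tried. Within groups, libraries differed by more than counting noise (chi-square over its degrees of freedom, 13.4 to 29.8). 3 against 3 libraries cannot give an exact two-sided permutation p below 0.1.

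Named members were the 10 largest increases and 10 largest decreases among members past the threshold with groups apart and a mean FPKM of 2 or more in whichever culture was higher, the 3 most abundant, the 3 nearest to no change, those at the FPKM rule, and those with known roles. Fingers were counted by the spacing of cysteines and histidines, and a KRAB box needed 10 of 14 letters. The members and lists were chosen with earlier results of these data known.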

Additional observations from a re-analysis of the deposited data

How the results depend on the processing

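No list or class of genes was tested as a whole. The count of members higher in 3D was 41 as reported, 23 with median-ratio scaling and 24 with upper-quartile scaling, and 26 to 43 when 1 library was left out, with 26 when it was 2D replicate 2 or either of 3D replicates 2 and 3. The count lower was 8 as reported, 3 with no filter on low values, and 3 to 8 with 1 library left out, with 3 without 2D replicate 1, 5 without 2D replicate 3, and 4 without either of 3D replicates 2 and 3. Fewer libraries enter those fits. The members' median of 0.21 became 0.07 with median-ratio and 0.09 with upper-quartile scaling, 0.29 with a pseudocount of 0.1, 0.32 with voom on the worked-out reads, and 0.20 to 0.28 with 1 library left out. Members with a KRAB box that were higher numbered 36 as reported. They numbered 19 and 20 with the median-ratio and upper-quartile scalings and 21 to 39 with 1 library left out. Those without a box that were higher numbered 5 as reported and 3 to 5 with 1 library left out. Both reported counts hold members whose direction the FPKM rule fixed. The pericentromeric block had 8 to 11 members higher and none lower in all 14 alternatives, a check added after seeing the data, as were the counts without members that passed the FPKM rule through 1 group alone.

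The numbers of the replicates do not pair the libraries (correlations of same-numbered deviations 0.084, -0.017 and 0.184). With the number as a block, 40 members were higher and 6 lower, in place of 41 and 8.

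Of the members named by rule, 8 changed sign in some setting, all of them not called. With median-ratio scaling ZNF146 was at -0.0022, ZNF787 at -0.09, ZNF121 at -0.12, ZNF134 at -0.14, ZNF428 at -0.14, ZNF529 at -0.06 and ZNF57 at -0.06. With upper-quartile scaling ZNF787 was at -0.07, ZNF121 at -0.11, ZNF134 at -0.13, ZNF428 at -0.13, ZNF529 at -0.05 and ZNF57 at -0.04. With 1 library left out the values ran between -0.12 and 0.24 for ZNF787, -0.03 and 0.14 for ZNF121, -0.05 and 0.07 for ZNF134, -0.26 and 0.28 for ZNF260, -0.10 and 0.18 for ZNF428, and -0.04 and 0.11 for ZNF529. The causes were not tested.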
